A study of Mus musculus with 8 samples.

Results

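The largazole response of A223 cells carrying a knockdown of PRDX6 (KD cells) was read from 4 polyA RNA-seq libraries, 2 with DMSO at time 0 h and 2 with 100 nM largazole for 18 h. These are 4 of the 8 libraries of the study. The other 4 are parental A223 cells in the same 2 conditions and are given for comparison. All 8 libraries entered the filter, the scaling and the estimate of spread behind the KD calls. All genes with enough counts were taken, which left 12517 of 24411. A223 is a mouse squamous cell carcinoma line. The labels give a genotype for the cells (Parental or PRDX6 KD) and no control construct, so the parental cells are not known to carry one, and the knockdown construct and whether the KD cells are a clone or a pool are not stated. No DMSO library of 18 h is used here. Drug and time change together in every comparison below and cannot be told apart. The labels do not say whether the replicates are separate cultures, and the p-values then reflect only library-to-library spread that may be technical.

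Largazole is a cyclic depsipeptide prodrug whose thiol binds the zinc of class I histone deacetylases (HDACs). These enzymes remove acetyl groups from histones and other proteins and work in corepressor complexes such as NuRD, Sin3 and CoREST, so that their inhibition changes transcription of many genes in either direction. PRDX6, a member of the peroxiredoxin family, reduces peroxides, including those of phospholipids, and takes part in selenium handling. The levels below are TMM-scaled CPM, which set a gene's counts against the size of its library, given for replicate 1 and then replicate 2. A log2 fold change is largazole over DMSO with its standard error, and a gene rose or fell where edgeR's quasi-likelihood test gave a Benjamini-Hochberg adjusted p under 0.05 over all 12517 genes.

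Prdx6 itself stood at 86.6 and 79.2 CPM in KD cells with DMSO and at 81.1 and 64.9 CPM with largazole. The 4 parental libraries stood between 233 and 297 CPM, above every KD library, as the labels say. The change with largazole in KD cells did not pass (log2 fold change -0.19 ± 0.11, adjusted p = 0.193). Its size depended on the treated library used: it was -0.36 without KD largazole replicate 1 and -0.04 without KD largazole replicate 2. The libraries held 13020492 to 15613216 counts. The 2 KD largazole libraries differed from each other more than the replicates of any other group: the log2 ratio of replicate 1 to replicate 2 had an SD over genes of 0.359, against 0.207 in KD DMSO, 0.194 in parental DMSO and 0.218 in parental largazole. Their difference went with transcript length. Over 9070 genes of at least 5 CPM in every library, Spearman's rho between log2(replicate 1 over replicate 2) and the length of the longest annotated transcript was -0.713 in KD largazole, -0.443 in KD DMSO, -0.487 in parental largazole and -0.120 in parental DMSO. These are descriptions across genes of the same libraries. Short transcripts were thus relatively more abundant in replicate 1 of the treated KD cells, and the part this has in the results was not tested. Levels of Rn45s, the ribosomal RNA precursor, were 9963 and 2549 CPM in the DMSO libraries of KD cells and 23915 and 742 CPM in the treated ones.

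The tissue label met mixed marker levels. Of 12 markers of squamous epithelium, 5 had 0 counts in both KD DMSO libraries (Krt5, Krt6a, Krt17, Trp63 and Epcam), and the sum of the list was 392 and 417 CPM with DMSO and 388 and 472 CPM with largazole. Most of that sum was Itga6, an integrin of the basal layer, at 264 and 286 CPM with DMSO. The 12 fibroblast markers summed to 5386 and 5471 CPM with DMSO and 4804 and 5411 CPM with largazole, led by the collagen genes Col1a1 and Col1a2. Leukocyte markers summed to 4.54 and 4.79 CPM with DMSO and 49.5 and 42.9 CPM with largazole. Nearly all of that was Cd68, a lysosomal membrane protein, at 47.5 and 41.1 CPM with largazole, while Cd3e, Cd8a, Ms4a1, Adgre1 and Tyrobp had 0 counts in both groups of KD libraries. Endothelial markers summed to 5.89 to 7.11 CPM with DMSO and 7.56 to 8.96 CPM with largazole, and Kdr, Erg, Emcn and Cldn5 had 0 counts in both groups of KD libraries.

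In KD cells 3083 genes rose (24.6% of those tested) and 2888 fell (23.1%), 47.7% in all. Of these, 1477 rose at least 2-fold (11.8%) and 603 fell at least 2-fold (4.82%), so that the larger changes were mostly rises. The median over all genes tested was 0.01 on the log2 scale. Counts of list members below are to be set against these shares, and a count near them says nothing particular of a list. At 8705 genes (69.5%) the KD DMSO and KD largazole libraries did not overlap. There were 111 genes that rose from 0 counts in both KD DMSO libraries and 0 that fell to 0 counts in both KD largazole libraries.

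**Figure D1:**
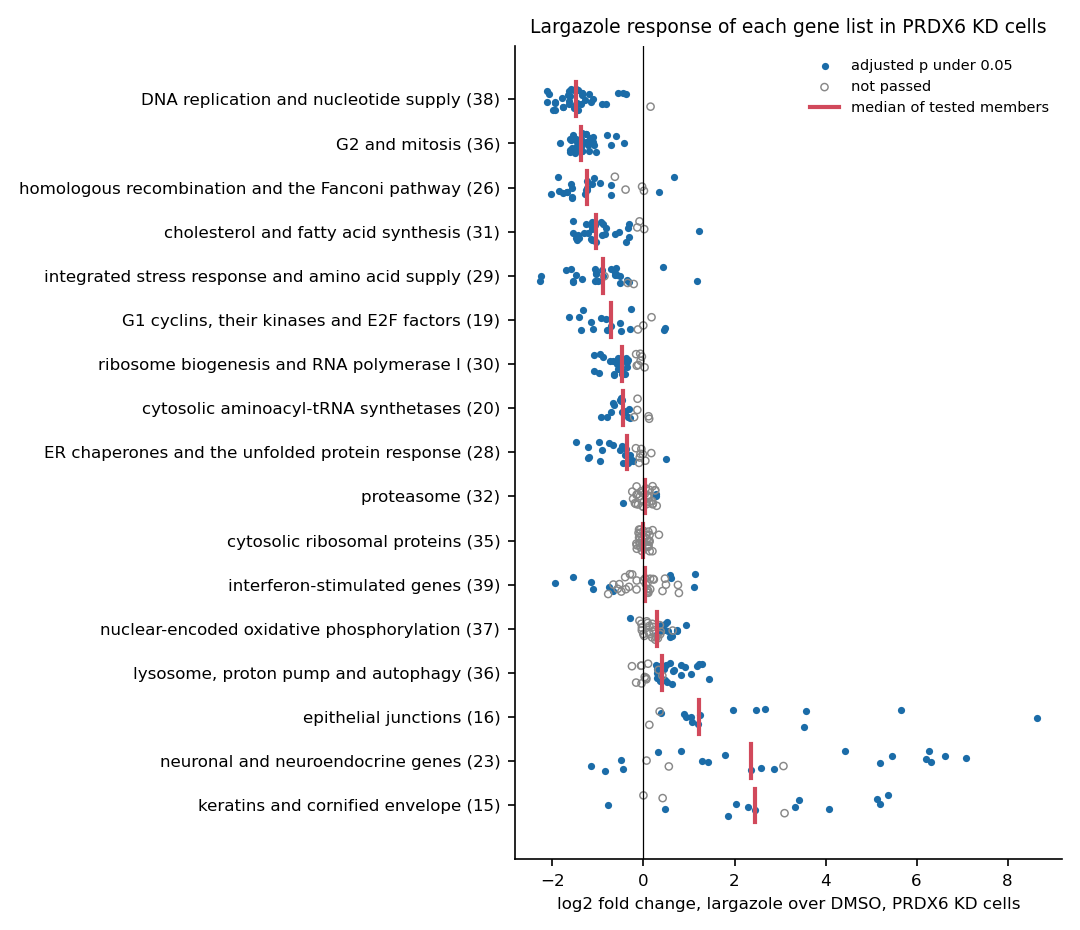
Log2 fold change with largazole in KD cells (x axis) of each tested member of 17 gene lists (y axis, number of tested members in brackets). Filled points passed at adjusted p under 0.05, open points did not, and the bar is the median of the tested members. The lists at the top, on DNA replication, mitosis and DNA repair, lie almost wholly below 0. Those at the bottom, on junctions, neuronal genes and keratins, lie mostly above 0. There 6 of 16, 7 of 23 and 6 of 15 members reached 10 counts in no DMSO library, so they could pass the filter only by being high with largazole. The medians of members detected with DMSO were 0.99, 1.05 and 2.02.

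Among genes of at least 5 CPM the largest fall was that of Adcy8, a calcium-stimulated adenylyl cyclase. It stood at 8.17 and 6.56 CPM with DMSO and at 0.312 and 0.27 CPM with largazole, a log2 fold change of -4.63 ± 0.38. Esm1, a secreted proteoglycan, went from 78.8 and 85.2 CPM to 9.12 and 9.84 CPM (-3.11 ± 0.11). Nptx1, a secreted neuronal pentraxin, went from 91.7 and 117 CPM to 13.6 and 16.9 CPM (-2.77 ± 0.14). The treated libraries of these 3 genes lay far below the DMSO libraries, but the rule for naming them already asked for no overlap. Mmp3, the matrix metalloproteinase stromelysin 1, fell from 169 and 168 CPM to 25.3 and 25.1 CPM (-2.74 ± 0.13). Hirip3, whose product binds the histone chaperone HIRA, Npr3, the clearance receptor of natriuretic peptides, D17H6S56E-5, Plxna4, a semaphorin receptor, Rnf165 and Gdf15, a stress cytokine, also fell, by 2.29 to 2.60 on the log2 scale. Exons of Hirip3 overlap Ino80e and those of Npr3 overlap Gm5144. The counting's strand setting is not given in the sources used here, so their reads cannot be told apart where strand was not used.

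The largest rises were of genes at or near 0 in DMSO. Ly6f, a small surface protein of the Ly6 family, had 0 counts in both KD DMSO libraries and 7.95 and 6.2 CPM with largazole, at least 32-fold higher than the limit that 0 counts allow (3 counts per library). By the same measure Plvap, a component of vesicle diaphragms, was at least 25.3-fold higher and Nos1, the neuronal nitric oxide synthase, at least 22.7-fold. Prph, the neuronal intermediate filament peripherin, had 1 count in the KD DMSO libraries together and 21.9 and 13.7 CPM with largazole, a ratio of 503 with an exact 95% interval from counting of 89.9 to 19910. Slc17a7, a vesicular glutamate transporter, had 1 count with DMSO and 8.42 and 11.6 CPM with largazole (ratio 291, 51.8 to 11535). All 5 of these genes were on in both treated libraries and off, or nearly so, in both DMSO libraries. The rule for naming them asked for no overlap, so this is not separate support. Cadm4, an adhesion molecule of the immunoglobulin family, was at 0.198 and 0.589 CPM with DMSO and at 98.1 and 92.7 CPM with largazole (log2 fold change 7.93 ± 0.22, adjusted p = 2.78e-08). Gstt1, Atp1b2 and Chchd10 had 1 to 3 counts with DMSO and ratios between 160 and 284. Chchd10 shares exons with Gm867 and Mmp11. Npcd, which shares exons with Cbx6 and Nptxr, differed between the treated libraries, at 9.12 and 1.28 CPM, and its call was lost without either KD DMSO library (adjusted p = 0.099 and 0.0927) and by limma-voom (0.0687).

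Genes of DNA replication fell together in KD cells. Of 38 tested members of the list of DNA replication and nucleotide supply, 37 fell and 0 rose, with a median log2 fold change of -1.48, and 32 fell at least 2-fold. Mcm5, a subunit of the replicative helicase, stood at 178 and 180 CPM with DMSO and at 41.9 and 40.4 CPM with largazole (-2.12 ± 0.08, adjusted p = 1.7e-07). Rrm2, the regulated subunit of ribonucleotide reductase, went from 171 and 184 CPM to 40.5 and 41.9 CPM. Mcm3, another helicase subunit, went from 138 and 145 CPM to 34.8 and 32 CPM. The replication factor Mcm10 went from 27.8 in both libraries to 6.31 and 7.69 CPM. In each of these 4 genes, named for the largest falls of the list, both treated replicates lay far below both DMSO replicates. Dut, which removes dUTP from the nucleotide pool, was the member that did not pass, at 115 and 108 CPM with DMSO and 146 and 103 CPM with largazole. In bulk RNA, fewer cells of a kind and less RNA per cell cannot be told apart.

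All 36 tested genes of the list on G2 and mitosis fell, with a median of -1.36 and a range of -1.82 to -0.42. Aurkb, the kinase of the chromosomal passenger complex, went from 80.5 and 82.4 CPM with DMSO to 22.9 and 23.1 CPM with largazole (-1.82 ± 0.09). Espl1, which encodes separase, Kif23, a kinesin of the central spindle, and Cdc20, an activator of the anaphase-promoting complex, fell by 1.61 to 1.62 on the log2 scale. Exons of Cdc20 overlap Elovl1. Many promoters of mitotic genes carry the cell cycle homology region, written TTTGAA. Of the 29 list members with a promoter in the RefSeq table, 21 (72.4%) held TTTGAA on either strand within the window from 250 bases before the start to 50 after it, against 20.2% of all 27025 genes with a promoter there and 13.9% of the tested ones. The stretches upstream of 3 of them are shown with the motif in capitals, 5′ to 3′ on the gene's strand and ending before the start site. They are Cdc20 at chr4:118437344-118437421 (minus strand), Espl1 at chr15:102296206-102296292 (plus strand) and Cdk1, the mitotic kinase, at chr10:69352913-69353043 (minus strand), all on GRCm38.p6.
Cdc20: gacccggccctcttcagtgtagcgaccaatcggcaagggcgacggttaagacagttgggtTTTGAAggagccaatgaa
Espl1: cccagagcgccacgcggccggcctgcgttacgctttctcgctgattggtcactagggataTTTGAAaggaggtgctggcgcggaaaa
Cdk1: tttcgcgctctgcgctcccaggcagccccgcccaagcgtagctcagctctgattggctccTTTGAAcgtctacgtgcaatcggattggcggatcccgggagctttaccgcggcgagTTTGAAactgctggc
A match describes these letters and is not evidence that a factor was bound there.

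Genes that control entry into S phase moved mostly downwards. Of 19 G1 cyclins, their kinases and E2F factors, 14 fell and 2 rose (median -0.71). E2f7, a repressing member of the E2F family, went from 28.6 and 32 CPM to 7.79 and 11.7 CPM (-1.63 ± 0.17), and its relative E2f8 from 143 and 158 CPM to 51.8 and 63.5 CPM. Cdk2, the kinase partner of cyclin E, fell by 1.42 and Ccne2, a cyclin E gene, by 1.32 on the log2 scale. Among 8 tested CDK inhibitors and pocket proteins 2 rose and 3 fell. Cdkn1a, the p53 target p21 that is often induced by HDAC inhibitors, was lower with largazole: 279 and 261 CPM with DMSO and 209 and 178 CPM with largazole (-0.48 ± 0.09, adjusted p = 0.00148). Cdkn1c, which encodes p57, rose from 0.132 and 0.295 CPM to 2.49 and 2.02 CPM, a low level in every library. Rb1, the retinoblastoma protein, rose from 20.9 and 22.3 CPM to 38 and 46.5 CPM, while Rbl1, its relative p107, fell from 56.6 and 62.8 CPM to 18.1 and 24.1 CPM. Cdkn2c, which encodes p18, fell by 0.51. The calls on Cdk2, Ccne2, E2f7 and Rb1 are on genes whose exons overlap a neighbour.

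**Figure D2:**
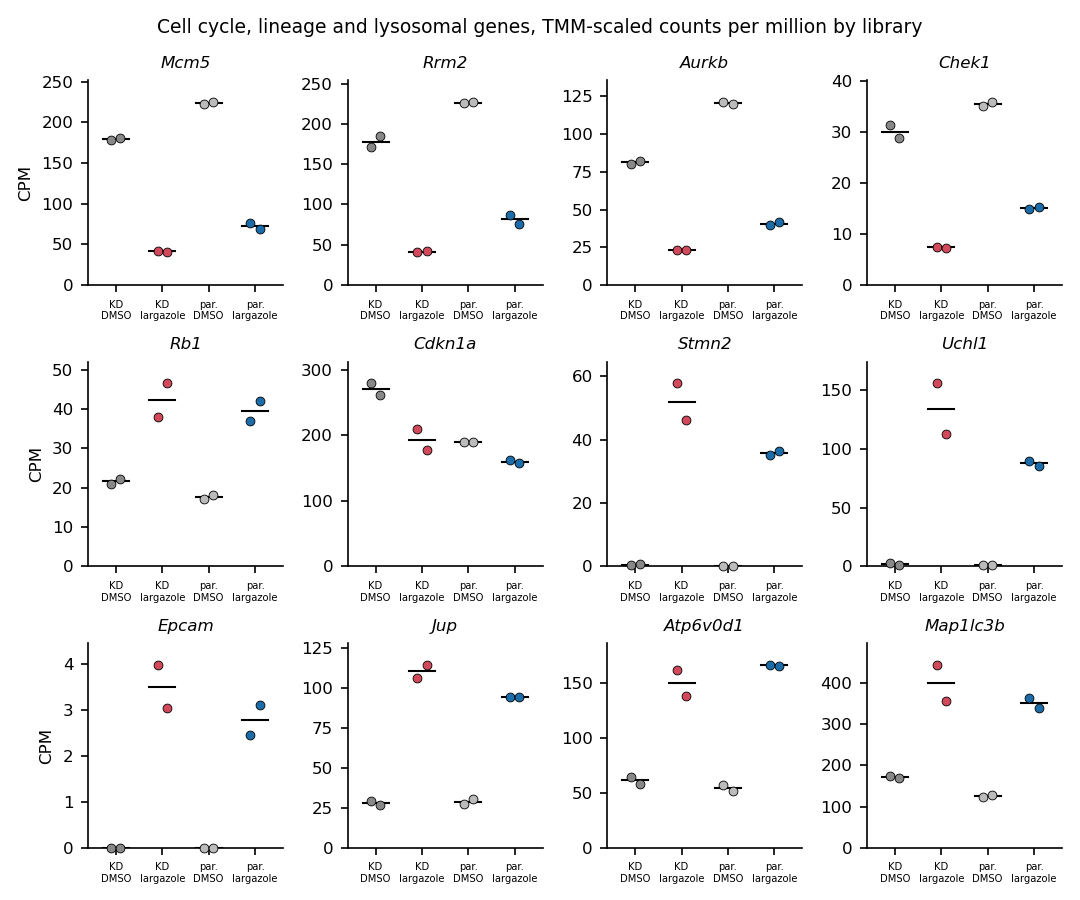
TMM-scaled CPM (y axes, starting at 0) of 12 genes in every library; each point is a library, the line is the mean of the 2 replicates, and par. stands for parental. Mcm5, Rrm2, Aurkb and Chek1 lie lower with largazole in both KD libraries, Rb1, Atp6v0d1, Map1lc3b and Jup lie higher, and Stmn2, Uchl1 and Epcam leave a level near 0.

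Homologous recombination and the Fanconi pathway repair broken and crosslinked DNA, and 20 of their 26 tested genes fell while 2 rose (median -1.25). Chek1, the checkpoint kinase of stalled forks, went from 31.3 and 28.7 CPM to 7.48 and 7.22 CPM (-2.03 ± 0.12). Palb2, which brings BRCA2 to damaged DNA, went from 11.1 and 12.2 CPM to 3.2 and 3.17 CPM. Fancb and Rad54l fell by 1.85 and 1.78 on the log2 scale. Exons of Rad54l overlap Lrrc41. The 2 members that rose were Rad51d, from 23.3 and 20.7 CPM to 29.3 and 26.7 CPM, and Fancg, from 5.14 and 6.34 CPM to 9.59 and 8.63 CPM.

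The targets of the drug moved little at the RNA level. Hdac1 was at 174 and 189 CPM with DMSO and 216 and 207 CPM with largazole (log2 fold change 0.22 ± 0.08, adjusted p = 0.0361), a call that was lost when either KD DMSO library or any 1 of the 4 parental libraries was left out, with adjusted p of 0.0569 to 0.257 and a value of 0.15 without KD DMSO replicate 1. It was also lost by DESeq2, with no filter on low counts and in a fit of the KD libraries alone (adjusted p = 0.0616, 0.0609 and 0.145). Hdac2 did not pass (-0.18 ± 0.08, adjusted p = 0.0899). It passed without KD largazole replicate 1, at -0.27 with adjusted p = 0.00656, and stood at -0.11 without replicate 2. Hdac3 fell by 0.28 (adjusted p = 0.0214), and this call was lost without KD DMSO replicate 1 or 2 (adjusted p = 0.0869 and 0.0875), with upper-quartile scaling (0.0838) and in a fit of the KD libraries alone (0.091). Of 28 genes of class I deacetylases and their corepressor complexes, 7 fell and 3 rose, with a median of -0.15. The counts depend on a library: 7 rose without KD largazole replicate 1, and 5 rose and 13 fell without replicate 2. Chd3, an ATPase of the NuRD complex, went from 239 and 244 CPM to 107 and 140 CPM (-0.97 ± 0.11). The complex members Rbbp7, Mbd3 and Rbbp4 fell by 0.37 to 0.60, and exons of Rbbp7 and Rbbp4 overlap a neighbour.

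Genes of DNA methylation and Polycomb included 8 that fell, 3 that rose and 11 that did not pass, of 22 tested. Phf19, an accessory subunit of Polycomb repressive complex 2, went from 34 and 35.8 CPM to 10.8 and 10.9 CPM. Uhrf1, which guides maintenance methylation, went from 159 and 177 CPM to 54.9 and 68.8 CPM, and the maintenance methyltransferase Dnmt1 from 367 and 400 CPM to 156 and 190 CPM. Cbx2 fell by 1.20 on the log2 scale. Of 16 tested histone genes 5 fell and 4 rose. H2afx, the histone variant phosphorylated at DNA breaks, went from 171 and 159 CPM to 42.4 and 33.5 CPM, while H1fx, a linker histone variant, went from 2.3 and 1.84 CPM to 11.9 and 9.17 CPM. Hist2h2be and Hist1h2bc rose by 1.55 and 1.40. PolyA selection captures replication-dependent histone mRNA, which ends without a polyA tail, only in part.

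The list of chaperones of the endoplasmic reticulum (ER) and other genes of the unfolded protein response had 28 tested members, and the response of 8 of them was lower in KD than in parental cells, against 0.192% of all genes with a lower response in KD cells. The unfolded protein response raises these genes when folding in the ER lags, through the sensors IRE1, PERK and ATF6. Of the 28, 19 fell with largazole in KD cells and 1 rose (median -0.36). In parental cells 8 of the 28 rose and 5 fell (median 0.04), where 26.8% of all genes rose and 22.6% fell, 49.3% in all. Hspa5, the ER chaperone BiP, was at 1223 and 1297 CPM in KD DMSO and at 451 in both KD largazole libraries, and at 2351 and 2316 CPM in parental DMSO and 2617 and 2657 CPM in parental largazole. KD DMSO thus lay below parental DMSO before treatment, and the treated KD libraries lay lowest of all. The fall in KD cells was -1.48 ± 0.07, and the difference from the parental response was -1.66 ± 0.10 (adjusted p = 0.000182).

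Across all genes the difference between the 2 responses passed at 29 genes (0.232% of those tested), 24 with a lower response in KD cells (0.192%) and 5 with a higher one (0.0399%). Of the 28 ER genes 8 were among the 24: Hspa5, Herpud1, Creld2, Hyou1, Pdia4, Hsp90b1, Calr and Dnajc3. Herpud1, which serves the degradation of ER proteins, went from 91 and 83.5 CPM to 39.7 and 35.3 CPM in KD cells and from 129 and 124 CPM to 127 and 125 CPM in parental cells (difference -1.21 ± 0.13, adjusted p = 0.00536). Hyou1, a large ER chaperone, went from 245 and 247 CPM to 104 and 107 CPM in KD cells and from 423 and 412 CPM to 323 in both libraries in parental cells. The fall was present in both genotypes for Hyou1 and was larger in KD cells. Creld2, an ER protein with disulfide isomerase activity, went from 86.6 and 79.8 CPM to 40 and 32.2 CPM. The lectin chaperone Calr and the disulfide isomerase Pdia4 fell in KD cells and rose in parental cells, with log2 fold changes of -0.47 and 0.31 for Calr and of -0.76 and 0.23 for Pdia4. Hsp90b1, the ER form of HSP90, went from 2131 and 2191 CPM to 1114 and 1087 CPM in KD cells. Dnajc3, a cochaperone of BiP, went from 125 and 138 CPM to 70.7 and 68.6 CPM. Sil1, the nucleotide exchange factor of BiP, was the member that rose in KD cells, from 36 and 31.5 CPM to 50.2 and 44.7 CPM. Xbp1, the factor spliced by IRE1, fell by 0.25 (adjusted p = 0.0306) and Atf6 by 0.42 (adjusted p = 0.00996), values that speak of gene levels and not of splicing or cleavage. The number of ER genes that passed the difference rests on few libraries. It was 1 without KD DMSO replicate 1 and 3 without replicate 2, 1 without any of the 4 parental libraries, and 16 and 14 without KD largazole replicate 1 and 2, in the first case with 1 more gene whose response was higher in KD cells. Hspa5 passed in each of these 8 fits, with differences of -1.70 to -1.60. The differences of Calr and Dnajc3 were also lost under other settings, at adjusted p of 0.0556 for each with RLE scaling.

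The ER stress response element, CCAAT followed after 9 bases by CCACG, is the site by which ATF6 raises these genes. Of the 28 tested ER genes, 20 have a promoter in the RefSeq table, and 8 of these (40%) held the element on either strand in the 300-base window, against 0.137% of all 27025 genes with a promoter and 0.158% of the tested ones. The 8 were Hspa5, Hsp90b1, Calr, Canx, Pdia6, Dnajc3, Creld2 and Syvn1, and each of them fell in KD cells. As the list was made of genes of the response that this element serves, its share is not separate support. Of the 29 genes whose response differed, 23 have a promoter in the table and 5 (21.7%) held it. All 5 are among the 8 of the ER list, so this share adds nothing independent. The 250 bases before the start of these 5 are shown, 5′ to 3′ on the gene's strand, with CCAAT and CCACG, or their complements, in capitals. They lie on GRCm38.p6 at chr2:34771840-34772089 (Hspa5, plus), chr15:88819396-88819645 (Creld2, plus), chr10:86705445-86705694 (Hsp90b1, minus), chr8:84846932-84847181 (Calr, minus) and chr14:118937682-118937931 (Dnajc3, plus).
Hspa5: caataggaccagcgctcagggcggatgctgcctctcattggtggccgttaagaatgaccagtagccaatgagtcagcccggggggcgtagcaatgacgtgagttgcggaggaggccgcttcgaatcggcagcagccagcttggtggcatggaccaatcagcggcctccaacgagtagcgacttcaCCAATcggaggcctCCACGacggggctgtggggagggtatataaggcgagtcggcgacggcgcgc
Creld2: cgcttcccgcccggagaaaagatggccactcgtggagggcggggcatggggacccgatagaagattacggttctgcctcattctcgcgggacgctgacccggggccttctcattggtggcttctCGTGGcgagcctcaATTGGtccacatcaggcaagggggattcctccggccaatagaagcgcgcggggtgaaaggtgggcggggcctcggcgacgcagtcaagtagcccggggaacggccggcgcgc
Hsp90b1: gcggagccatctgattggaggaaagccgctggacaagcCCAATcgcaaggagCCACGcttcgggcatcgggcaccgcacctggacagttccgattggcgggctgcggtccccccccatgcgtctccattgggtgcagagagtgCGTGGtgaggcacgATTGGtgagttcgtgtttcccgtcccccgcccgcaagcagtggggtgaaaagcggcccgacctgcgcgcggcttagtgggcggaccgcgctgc
Calr: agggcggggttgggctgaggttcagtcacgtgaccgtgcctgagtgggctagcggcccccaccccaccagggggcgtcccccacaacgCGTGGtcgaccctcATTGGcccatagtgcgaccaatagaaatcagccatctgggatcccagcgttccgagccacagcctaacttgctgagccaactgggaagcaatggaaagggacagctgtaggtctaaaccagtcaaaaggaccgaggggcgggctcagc
Dnajc3: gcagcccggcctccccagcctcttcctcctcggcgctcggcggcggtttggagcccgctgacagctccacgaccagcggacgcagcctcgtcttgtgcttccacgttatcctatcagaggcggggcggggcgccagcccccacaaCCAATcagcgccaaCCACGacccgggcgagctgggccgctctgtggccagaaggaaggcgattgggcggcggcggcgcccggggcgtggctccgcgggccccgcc
Hsp90b1 held 2 matches and the others 1 each, and none overlapped another motif searched. In Hspa5 the match ended 47 bases before the start, counting the base before the start as 1. In Creld2, Calr and the second match of Hsp90b1 the element lay on the opposite strand. The table's letters alone say nothing of binding in these cells.

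**Figure D3:**
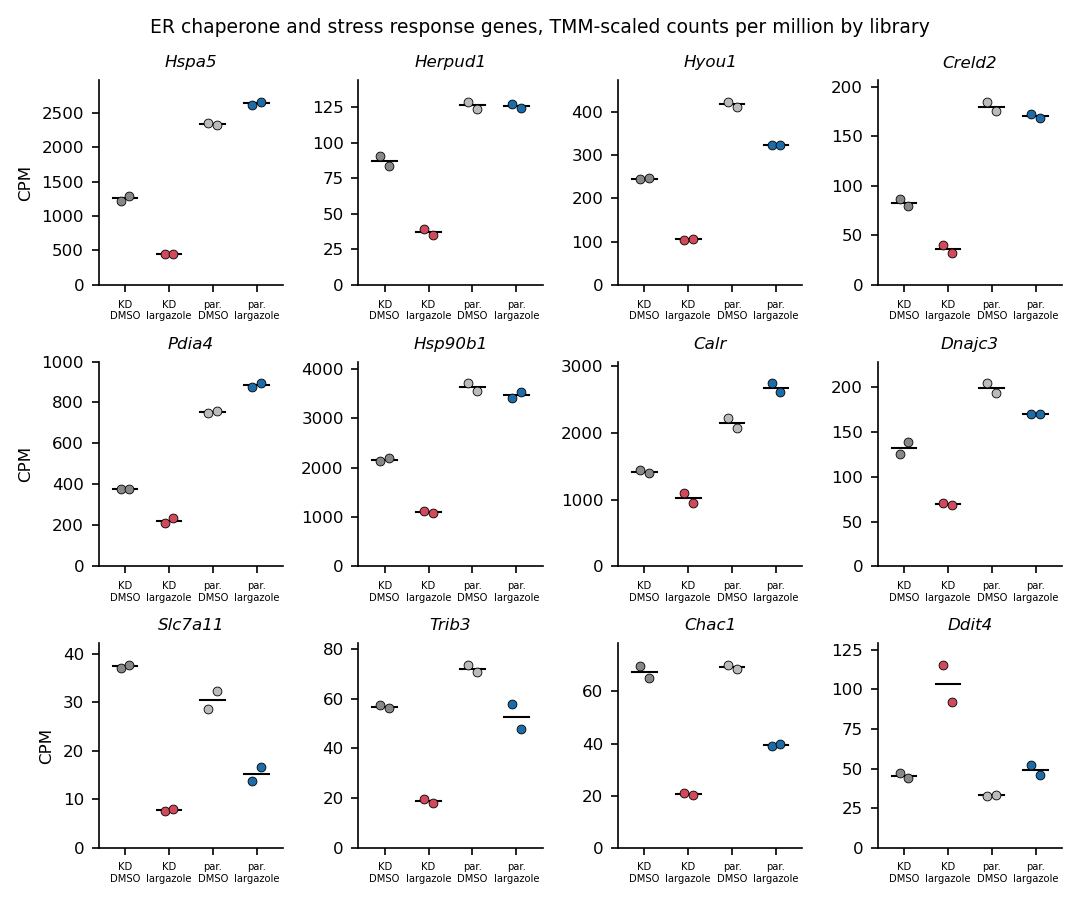
TMM-scaled CPM (y axes, starting at 0) of 8 ER genes and 4 stress response genes in every library; each point is a library, the line is the mean of the 2 replicates, and par. stands for parental. The KD largazole libraries are the lowest of the 8 for every gene but Ddit4, for which they are the highest.

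The integrated stress response, in which ATF4 raises genes of amino acid supply, moved down in KD cells. Of 29 tested members of this list 24 fell and 2 rose (median -0.88), and 13 fell at least 2-fold. Atf4 itself went from 693 and 634 CPM to 349 and 283 CPM (-1.07 ± 0.10). Cth, which makes cysteine from cystathionine, went from 27 and 24.7 CPM to 6.55 and 4.18 CPM (-2.28 ± 0.18). Slc7a11, the cystine importer that feeds glutathione synthesis and limits ferroptosis, went from 37.1 and 37.7 CPM to 7.64 and 8.02 CPM (-2.25 ± 0.14), and in parental cells from 28.5 and 32.4 CPM to 13.8 and 16.7 CPM. Its fall was larger in KD cells by 1.26 ± 0.19 (adjusted p = 0.0394). Chac1, which degrades glutathione, went from 69.9 and 65 CPM to 21 and 20.2 CPM. Trib3, a pseudokinase induced by ATF4, went from 57.3 and 56.4 CPM to 19.8 and 17.9 CPM. Both also differed from the parental response, by -0.89 and -1.14. These 3 differences passed without either KD largazole library and were lost without any 1 of the other 6 libraries. That of Slc7a11 was also lost with library totals only and by limma-voom (adjusted p = 0.0552 and 0.0559). Ddit4, an inhibitor of mTORC1, rose from 47.1 and 44.2 CPM to 115 and 92 CPM, and Cebpb rose by 0.44. Asns, asparagine synthetase, did not pass, at 290 and 282 CPM with DMSO and 269 and 225 CPM with largazole. The cytosolic aminoacyl-tRNA synthetases, several of which are ATF4 targets, counted 15 that fell and 0 that rose of 20 (median -0.44), with Vars, Rars, Iars and Hars falling by 0.66 to 0.93.

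The element read by ATF4 with C/EBP partners contains TGATGCAA. Of the 29 stress response genes 25 have a promoter in the table and 5 of these (20%) held it on either strand, against 1.03% of all genes with a promoter and 0.809% of the tested ones. Of 12 tRNA synthetase genes with a promoter, 4 held it (33.3%). The 250 bases before the start of Slc7a11, at chr3:50443614-50443863 on the minus strand, and of Chac1, at chr2:119350992-119351241 on the plus strand, are shown because both genes also differed between the genotypes.
Slc7a11: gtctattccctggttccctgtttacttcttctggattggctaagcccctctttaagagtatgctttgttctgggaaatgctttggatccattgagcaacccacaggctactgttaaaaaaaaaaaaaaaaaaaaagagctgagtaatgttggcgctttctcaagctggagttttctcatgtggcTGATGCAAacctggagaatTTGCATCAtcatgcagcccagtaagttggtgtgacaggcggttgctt
Chac1: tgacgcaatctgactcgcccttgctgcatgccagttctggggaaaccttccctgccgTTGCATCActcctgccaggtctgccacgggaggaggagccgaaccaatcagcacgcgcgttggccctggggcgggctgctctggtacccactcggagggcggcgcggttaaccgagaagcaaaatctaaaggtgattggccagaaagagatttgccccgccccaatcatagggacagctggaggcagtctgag
Slc7a11 held 2 matches, 1 on each strand, and Chac1 held 1.

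Synthesis of cholesterol and fatty acids, which SREBP factors control, was lower: 27 of 31 genes fell and 1 rose (median -1.05). Idi1, which isomerises isopentenyl diphosphate, went from 246 and 264 CPM to 85.9 and 89.3 CPM (-1.54 ± 0.08). Fasn, fatty acid synthase, and Elovl6, a fatty acid elongase, fell by 1.47 and 1.45. These genes were named for their large falls, and the treated libraries of each lay well below the DMSO libraries. Tm7sf2, a sterol reductase of the same pathway, rose from 22.5 and 21.5 CPM to 57.1 and 45.9 CPM. Parental cells had 24 falls and 1 rise in this list (median -0.87), and 0 of its genes passed the difference by edgeR, DESeq2 or limma-voom. At an unadjusted p under 0.05 by edgeR there were 4 of 31 for the difference, against 1089 of all 12517 genes. Without KD largazole replicate 1 or 2, 2 and 1 passed, with the lower response in KD cells. Ribosome biogenesis and RNA polymerase I genes counted 23 falls and 0 rises of 30 (median -0.47). Utp20 and Dkc1, which serve the processing and pseudouridylation of ribosomal RNA, each fell by 1.09, and Nolc1 and Rrs1 by 0.97 and 0.96.

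Lysosome, proton pump and autophagy genes went the other way. Of 36 tested, 25 rose (69.4%, against 24.6% of all genes) and 0 fell, with a median of 0.41. The rises of at least 2-fold were 5, where 11.8% of all genes rose by that much. Atp6v0d1, a subunit of the proton pump, rose from 64.9 and 57.8 CPM to 162 and 139 CPM (1.29 ± 0.10). Map1lc3b and Map1lc3a, which encode LC3 proteins of the autophagosome, went from 175 and 168 CPM to 444 and 356 CPM and from 27.5 and 20.6 CPM to 63 and 46.9 CPM. Exons of Map1lc3b overlap Zcchc14. Tfeb, a regulator of these genes, did not pass (0.41 ± 0.29, adjusted p = 0.266). The parental counts were 24 and 2, with a median of 0.36.

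Genes of metal and redox defence moved in both directions. The metallothioneins Mt1 and Mt2, which bind zinc and copper, rose from 34 and 31.1 CPM to 123 and 82.3 CPM and from 15.2 and 11.5 CPM to 82.9 and 55.2 CPM. Mt3 had 1 count with DMSO and 7.33 and 3.37 CPM with largazole, a ratio of 150 (26.4 to 5952). The zinc importer Slc39a4 rose from 0.263 and 0.147 CPM to 3.9 and 2.7 CPM. The other 10 tested zinc genes included 6 that fell, and without KD DMSO replicate 2 the list had 2 falls. Among the 12 zinc and metallothionein genes detected with DMSO 2 rose and 6 fell. Of 38 genes of the peroxiredoxin, thioredoxin and glutathione systems 12 rose and 8 fell (median 0.06); 3 fell without KD DMSO replicate 1, and leaving out KD largazole replicate 1 gave 13 falls. With all libraries, the shares of 31.6% that rose and 21.1% that fell lay near the 24.6% and 23.1% of all genes. Of the 38, 33 were higher in replicate 1 of KD largazole than in replicate 2, with a median log2 difference of 0.24. Gsta4, a glutathione transferase that detoxifies lipid aldehydes, rose from 0.593 and 1.4 CPM to 42.3 and 34.6 CPM (5.29 ± 0.26). Txnip, an inhibitor of thioredoxin, rose from 12.3 and 12 CPM to 72.1 and 71.3 CPM, and Gstm5 and Gstm1 rose by 1.75 and 1.39. Exons of Txnip overlap Gm15441. Among 26 tested selenoprotein and selenium machinery genes, 9 rose and 10 fell. Gpx3, a secreted glutathione peroxidase, rose from 0.79 and 0.368 CPM to 6.16 and 3.44 CPM, and the selenoprotein P receptor Lrp8 fell from 87.3 and 91.2 CPM to 22.4 and 26.4 CPM. Dio2 and 2700094K13Rik, the deiodinase 2 and selenoprotein H genes, fell by 1.47 and 1.43. Of 27 genes that bear on ferroptosis, 11 rose and 7 fell. They include Alox12, a lipoxygenase, at 0.395 and 0.368 CPM with DMSO and 2.34 and 2.02 CPM with largazole, and Mboat2, a phospholipid acyltransferase, at 5.66 and 8.91 CPM and then 22.1 and 22.5 CPM.

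Neuronal genes supplied many of the largest rises. Of 36 members 23 were tested, of which 16 rose and 4 fell (median 2.37). Because 7 of the 23 reached 10 counts in no DMSO library and could pass the filter only through treated ones, the 16 detected with DMSO are also given: 10 rose and 4 fell, with a median of 1.05. Stmn2, a tubulin-binding protein of growth cones, went from 0.329 and 0.737 CPM to 57.8 and 46.3 CPM (6.61 ± 0.26). Uchl1, a neuronal ubiquitin hydrolase, went from 2.5 and 0.884 CPM to 156 and 113 CPM (6.27 ± 0.28). Vgf, a neuropeptide precursor, had 2 counts with DMSO and 11.5 and 9.91 CPM with largazole, a ratio of 153 (41.9 to 1268). Syt1, the calcium sensor of synaptic vesicles, had 3 counts with DMSO and 8.42 and 9.64 CPM with largazole (ratio 87, 29.4 to 425). All 4, named for the largest changes of the list, were near 0 in both DMSO libraries and clearly present in both treated ones. The exons of Uchl1 overlap Uchl1os. The neurofilament genes Nefm and Nefl fell, from 150 and 166 CPM to 70.2 and 72.4 CPM and from 96.3 and 111 CPM to 65.2 and 82.5 CPM, and so did Cplx2 and Gap43. Of 16 tested voltage-gated ion channel genes 7 rose and 3 fell, and 5 fell without KD largazole replicate 2. Among the 14 detected with DMSO 5 rose and 3 fell, with a median of 0.25. Cacnb3, a calcium channel subunit, rose from 80.9 and 71.7 CPM to 204 and 194 CPM, and Scn9a, a sodium channel whose exons overlap Gm13629, rose from 0.263 and 0.0737 CPM to 2.88 and 3.51 CPM. Kcnh2 rose by 1.38. Cacna1g had 0 counts with DMSO and was at least 3.98-fold higher.

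Of 28 epithelial junction genes 16 were tested, of which 14 rose and 0 fell. The list summed to 487 and 553 CPM with DMSO, most of it the scaffold protein gene Tjp1 at 321 and 377 CPM, which did not pass. The median was 1.22, or 1.13 with the 2 genes at 0 counts held at their lower bound. Of the 10 detected with DMSO, 8 rose (median 0.99), and without KD DMSO replicate 2 the 14 became 9. Jup, plakoglobin of desmosomes, went from 29.4 and 26.9 CPM to 106 and 114 CPM (1.97 ± 0.10). Epcam, an epithelial adhesion molecule, had 0 counts in both DMSO libraries and 3.97 and 3.03 CPM with largazole, at least 15.9-fold higher. Dsp, desmoplakin, and Esrp2, a splicing factor of epithelial cells, had 3 counts each with DMSO, with ratios of 12.5 (3.94 to 63.3) and 12.8 (4.06 to 65). Exons of Esrp2 overlap Nfatc3. Cgn, cingulin of tight junctions, had 0 counts with DMSO and 3 and 9 counts with largazole, at least 1.9-fold higher, and its call was lost without KD DMSO replicate 1 or 2 or KD largazole replicate 2 (adjusted p = 0.078, 0.0695 and 0.0781). Of 15 tested keratins and cornified envelope genes 11 rose and 1 fell, and of the 9 detected with DMSO 6 rose and 1 fell. Sprr1b, a cornified envelope precursor, went from 0.263 and 0.0737 CPM to 8.18 and 5.19 CPM, and Klk8, a skin protease, from 0.132 and 0.147 CPM to 6.62 and 3.78 CPM. Krt14, a basal keratin, had 1 count with DMSO and 1.48 and 2.09 CPM with largazole (ratio 52, 8.91 to 2093). Krt8, the most abundant keratin here, fell from 2267 and 2182 CPM to 1418 and 1159 CPM, while Krt18, its usual partner, rose from 130 and 115 CPM to 183 and 158 CPM. Klk6 had 1 count with DMSO (ratio 20.8, 3.32 to 862), and its call was lost without KD DMSO replicate 2 (adjusted p = 0.0741).

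Markers of squamous epithelium and other cell types moved in both directions. Of 8 tested squamous markers 5 rose and 2 fell, and of the 4 detected with DMSO 1 rose and 2 fell; 3 rose in all without KD DMSO replicate 1. Sox2, a factor of squamous tumours, fell from 55.1 and 55.3 CPM to 17.7 and 20.6 CPM, and Itgb4, an integrin of hemidesmosomes, rose from 69.5 and 72.9 CPM to 167 and 197 CPM. Trp63, the master regulator of stratified epithelium, had 0 counts with DMSO and 12 and 6 counts with largazole, at least 3.03-fold higher, a call lost without KD DMSO replicate 1 (adjusted p = 0.0516). Perp, a desmosomal p53 target, stayed at or under 1.56 CPM in every KD library and lost its call without KD DMSO replicate 1 or 2 or KD largazole replicate 1 (adjusted p = 0.107, 0.0874 and 0.0883), and by DESeq2 (0.0609). Of 9 tested fibroblast markers 2 rose and 4 fell, and 2 fell without KD DMSO replicate 2. Thy1 rose from 65.3 and 65.6 CPM to 122 and 109 CPM and Pdgfrb, a growth factor receptor, fell from 79.5 and 83.3 CPM to 45.4 and 50.5 CPM. Cd68 rose from 4.35 and 4.42 CPM to 47.5 and 41.1 CPM (3.33 ± 0.13). Ptprc, the leukocyte antigen CD45, had 0 counts with DMSO and 8 in each treated library, at least 2.63-fold higher, and the endothelial Vwf had 0 counts and then 10 and 15, at least 4.05-fold higher.

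Secreted and matrix genes changed in both directions. Of 41 mesenchymal and extracellular matrix genes 18 rose and 6 fell (median 0.16). Tnc, tenascin C, fell from 894 and 1006 CPM to 199 and 239 CPM (-2.12 ± 0.10), and Mmp10, a stromelysin beside Mmp3, from 42.5 and 39.4 CPM to 8.42 and 9.58 CPM. Fn1, fibronectin, rose from 876 and 1013 CPM to 1854 and 2552 CPM, and Col6a2, a chain of collagen VI, from 12.6 and 12.7 CPM to 34.8 and 32.9 CPM. Of 38 genes of EGFR ligands, MAPK feedback and immediate early response 12 rose (31.6%) and 10 fell (26.3%). Those shares lay near the 24.6% and 23.1% of all genes. Erbb3, a receptor of neuregulins, rose from 0.329 and 0.884 CPM to 4.36 and 5.6 CPM. Egr2 and Egfr rose by 1.88 and 1.87 from levels under 1 CPM. Of 21 YAP and TEAD targets 7 fell and 3 rose. The falls include Cyr61, a matricellular protein, from 81.3 and 85 CPM to 29.1 and 31.3 CPM, and Fjx1. Ankrd1 and Tgfb2 rose by 0.71 and 1.96. These counts were 4 falls without either KD DMSO library and 7 rises without KD largazole replicate 1. Of 29 p53 targets 10 fell and 7 rose, and 4 rose without KD DMSO replicate 1. Gdf15 fell from 19.6 and 19 CPM to 3.2 and 4.65 CPM and Eda2r from 75.4 and 84.7 CPM to 35.9 and 42.5 CPM, and Fas, a death receptor, rose from 2.83 and 2.87 CPM to 7.09 and 5.93 CPM. In the BCL2 family 4 of 13 rose and 2 fell. Bmf, a BH3-only protein, rose from 2.5 and 2.21 CPM to 7.48 and 9.71 CPM and Bid, whose exons overlap Bcl2l13, from 16.2 and 14.2 CPM to 33.4 and 29.1 CPM. Bcl2 rose by 0.60, a call lost without KD DMSO replicate 1 (adjusted p = 0.106). The p53, MAPK, cytokine and ferroptosis lists each held 1 gene that reached 10 counts in no DMSO library, and without it their rises were 6, 11, 5 and 10.

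Interferon genes differed between the DMSO replicates of KD cells. All 39 tested interferon-stimulated genes were higher in KD DMSO replicate 1 than in replicate 2, with a median log2 difference of 0.66, against 0.00 over all genes. With largazole 4 rose and 6 fell and 29 did not pass (median 0.04). Without KD DMSO replicate 1, 14 rose and 2 fell, and without replicate 2, 2 rose and 13 fell. Ifi44, an interferon-induced protein, was at 53.5 and 19.6 CPM with DMSO and 9.82 and 9.24 CPM with largazole, a log2 fold change of -1.94 ± 0.38 that became -1.05 without KD DMSO replicate 1. Irf7, a regulator of interferon genes, was at 68.8 and 28.4 CPM with DMSO and 37.6 and 30 CPM with largazole and did not pass. Ifi27 rose from 109 and 105 CPM to 265 and 202 CPM. Cxcl10, a chemokine whose exons overlap Art3, fell from 3.49 and 3.09 CPM to 1.01 and 1.21 CPM. In parental cells 15 of the 39 rose and 0 fell (median 0.84). The interferon genes passed the difference in 0 cases by edgeR or limma-voom and in 3 by DESeq2. At an unadjusted p under 0.05 by edgeR there were 15 of 39 for the difference, against 1089 of all 12517 genes. The median difference was -0.86, or -0.35 without KD DMSO replicate 1, and 3 passed without KD DMSO replicate 2 and 5 without either KD largazole library. Of 17 MHC class I genes 7 rose and 5 fell; 3 rose without KD DMSO replicate 2 and 3 fell without replicate 1. H2-Q4 fell from 65.4 and 51 CPM to 26.3 and 19.3 CPM, and Erap1, which trims peptides and shares exons with Cast, from 33.5 and 35 CPM to 14.3 and 15.9 CPM. Of 26 NF-kB, cytokine and chemokine genes 6 rose and 10 fell, and 6 fell without KD DMSO replicate 1. Icam1, an adhesion molecule of leukocyte contact, rose from 0.329 and 0.221 CPM to 4.05 and 2.97 CPM, and Cxcl5 rose by 1.60.

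Among ribosomal, mitochondrial and proteasome genes the counts moved with the KD largazole replicate used. Of 35 cytosolic ribosomal protein genes 0 rose and 0 fell by edgeR. At an unadjusted p under 0.05 there was 1, against 6847 of all 12517 genes. By limma-voom 0 passed and by DESeq2 1 rose. All 35 were higher in replicate 1 of KD largazole, with a median log2 difference of 0.52. Without replicate 2, 22 rose, and without replicate 1, 25 fell. Of 37 nuclear-encoded oxidative phosphorylation genes 14 rose and 1 fell (median 0.30). All 37 were higher in replicate 1 of KD largazole, by a median of 0.44, and 26 rose without replicate 2 and 8 without replicate 1, while 7 and 2 rose without KD DMSO replicate 1 and 2. Atp5d, a subunit of the ATP synthase, rose from 171 and 148 CPM to 307 and 225 CPM, a log2 fold change of 0.74 that became 0.49 without KD largazole replicate 1. Of 32 proteasome genes 2 rose and 1 fell, but 15 rose without KD largazole replicate 2 and 9 fell without replicate 1. Psmc3, whose exons overlap Slc39a13, fell from 211 and 201 CPM to 166 and 136 CPM. Of 20 cytosolic heat shock genes 9 fell and 2 rose, and 5 fell without KD DMSO replicate 2. Hspb1, a small heat shock protein, rose from 51.9 and 46.9 CPM to 201 and 150 CPM, Cryab rose by 0.81 and Hspd1 and Hsp90ab1 fell by 0.82 and 0.52. Of 33 glycolysis and hypoxia genes 14 rose and 4 fell (median 0.20). The falls were 1 and 2 without KD DMSO replicate 1 and 2, and 7 without KD largazole replicate 1. Car9, a carbonic anhydrase of hypoxic tumours, rose from 7.38 and 8.25 CPM to 41.7 and 32.4 CPM and Aldoc, an aldolase, from 10.7 and 7.66 CPM to 26.7 and 23.7 CPM.

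**Figure D4:**
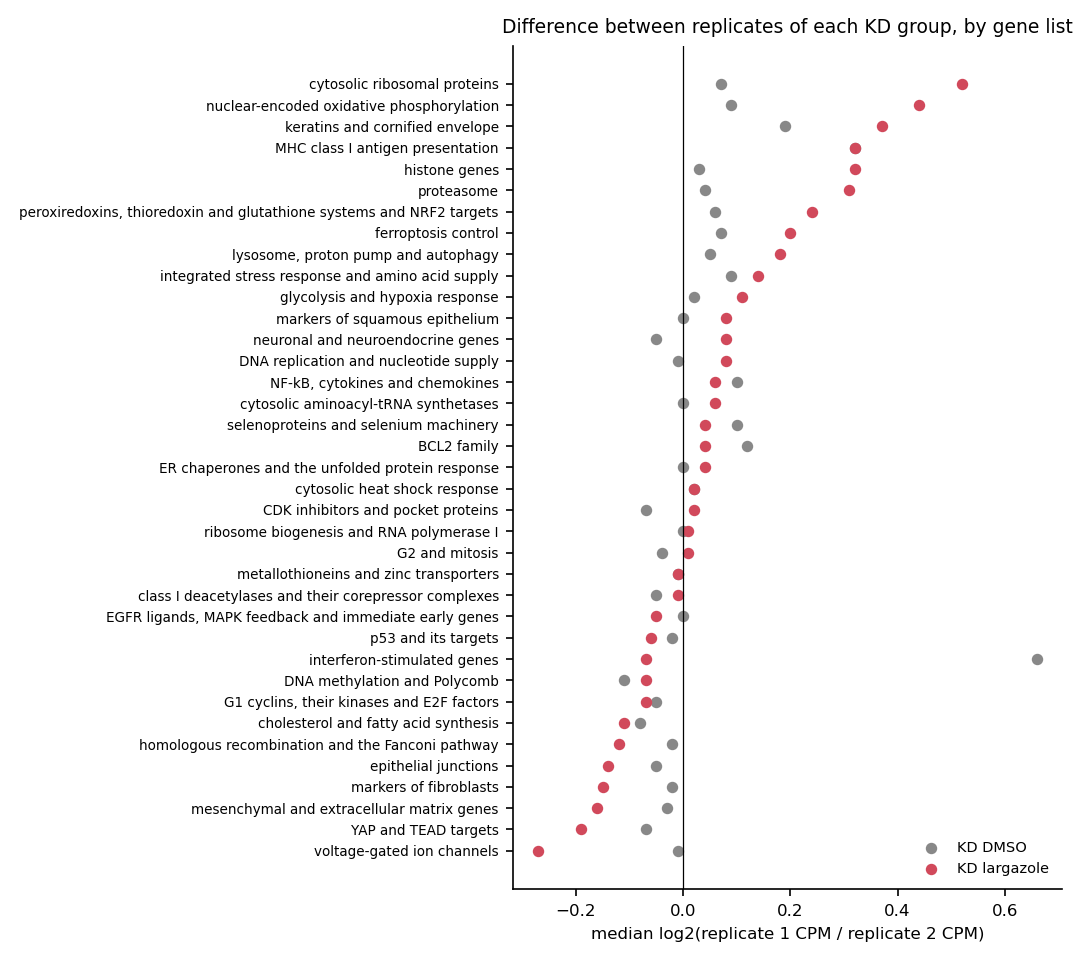
Median over the tested members of each gene list of the log2 ratio of CPM in replicate 1 to replicate 2 (x axis) in KD DMSO (grey) and KD largazole (red), for lists of at least 8 tested members (y axis). In KD largazole ribosomal proteins are at 0.52 and oxidative phosphorylation at 0.44, followed by keratins at 0.37 and histone and MHC class I genes at 0.32, and in KD DMSO interferon-stimulated genes are at 0.66.

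Most of the response was shared with parental cells, whose libraries were fitted together with those of KD cells. Of the 3083 genes that rose in KD cells 2626 also rose in parental cells, which is 85.2% of the KD list and 78.4% of the parental one, and 4 fell. Of the 2888 that fell in KD cells 2243 also fell in parental cells, 77.7% of the KD list and 79.4% of the parental one, and 11 rose. Esm1, for example, went from 147 and 141 CPM to 15.1 and 16.8 CPM in parental cells, a log2 fold change of -3.18 against -3.11 in KD cells. The 29 genes whose response differed fall into kinds. In 11 both genotypes fell, in 8 both rose, in 4 KD cells fell and parental cells did not pass, in 4 KD cells fell and parental cells rose, and in 2 KD cells rose and parental cells fell.

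**Figure D5:**
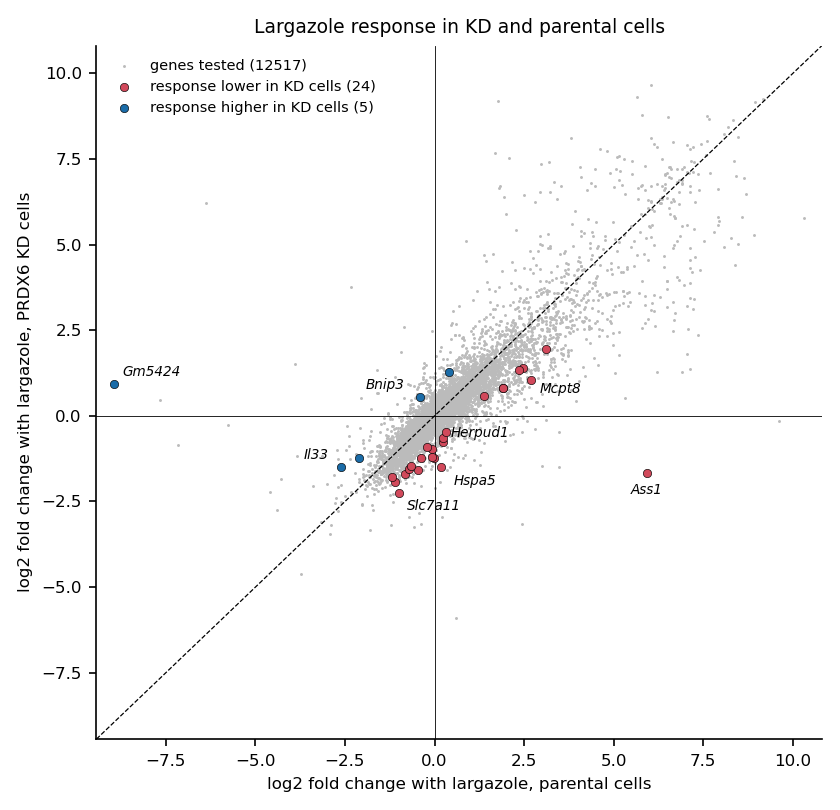
Log2 fold change with largazole in parental cells (x axis) and in KD cells (y axis) for the 12517 genes tested, with the line of equality dashed. The 24 genes with a lower response in KD cells (red) lie below the line and the 5 with a higher one (blue) above it.

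Beside the ER and stress response genes, the genes with a lower response in KD cells included Mcpt8 and Ggt7, which rose in both genotypes. Mcpt8, a granule protease of basophils, went from 95.3 and 97.3 CPM to 223.4 and 173.8 CPM in KD cells and from 9.32 and 9.58 CPM to 62.7 and 60.5 CPM in parental cells, a difference of -1.66 ± 0.17 (adjusted p = 0.00536). Every KD library lay above every parental library of this gene. Ggt7, whose exons overlap Acss2, went from 10.6 and 10.8 CPM to 39.2 and 43.3 CPM in KD cells and from 3.77 and 4.25 CPM to 35.2 and 33.8 CPM in parental cells (difference -1.15 ± 0.19). In Ggt7 the DMSO levels differed between genotypes and the treated levels lay near each other. Il33, a nuclear alarmin cytokine, fell less in KD cells: from 984 and 977 CPM to 330 and 360 CPM, against 373 and 366 CPM to 62 and 58.2 CPM in parental cells (difference 1.11 ± 0.10, adjusted p = 0.0038). Bnip3, a mitophagy receptor induced by hypoxia, rose in KD cells from 156 and 159 CPM to 248 and 214 CPM and fell in parental cells from 97.4 and 90.1 CPM to 74.1 and 66.4 CPM. Eno2, the neuronal enolase, rose more in KD cells, from 27 and 24.5 CPM to 61.4 and 63.6 CPM against 25.4 and 26 CPM to 34.5 and 33.9 CPM. Itgbl1 fell less in KD cells (difference 0.89 ± 0.14). Mcpt8 and Il33 kept their call in 3 and 4 of the 8 fits without a library, and Ggt7, Bnip3, Eno2 and Itgbl1 in 2, those without a KD largazole library. With library totals only, Ggt7, Eno2 and Itgbl1 did not pass (adjusted p = 0.0581, 0.0607 and 0.0641). Cyclin E showed differences of similar size that did not pass: Ccne1 was at 23.4 and 24.9 CPM and then 11.9 and 9.91 CPM in KD cells, and at 26 and 22 CPM and then 28.4 and 23.7 CPM in parental cells (difference -1.27 ± 0.21, adjusted p = 0.0543).

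Ass1, argininosuccinate synthase, has a near-identical copy, Gm5424, and how reads were assigned between them is not known, so neither is certain alone. The sum of the 2 was 22.5 and 21.4 CPM in KD DMSO, 27.3 and 31.5 CPM in KD largazole, 4.95 and 4.32 CPM in parental DMSO and 22.3 and 21.9 CPM in parental largazole. Ass1 alone had 0.701 and 3.91 CPM in KD largazole and 22.3 and 21.9 CPM in parental largazole, where Gm5424 had 0 counts. Gm5424 is named because of Ass1, after its values were seen.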

How the data were processed

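The authors deposited an estimated count per gene for each of the 8 libraries. Of these deposited values 97.3% were whole, and the rest were rounded. RNA was purified with a column kit and made into strand-specific libraries after polyA selection, per the labels' protocols. The genome build was mm10, per the submitters' processing notes. No source used here gives the aligner, the counting program and its strand setting, or the annotation. Of the symbols, 27 had turned into dates, of which 21 were tested and none is named.

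Genes were kept by edgeR's filterByExpr (minimum count 10, minimum total 15), scaled by TMM and fitted with edgeR 4.0.16 (R 4.3.3) as 4 group means over all 8 libraries, which share 1 estimate of the spread (common biological coefficient of variation 0.0946). The contrasts were largazole against DMSO in KD cells, the same in parental cells, and the difference between them. Each was tested with the quasi-likelihood F test, two-sided, with Benjamini-Hochberg adjustment over 12517 genes. Standard errors were obtained as |log2 fold change|/√F. Intervals and limits from counts cover counting error only. The fit was also run on simulated counts, with few genes changed, the same dispersion for every gene and none of the replicate differences seen here. That run cannot show how those differences affect the calls. Motifs were searched in RefSeq promoters (GRCm38.p6), matched by symbol.

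Genes were named by rule. These were Prdx6, Hdac1, Hdac2, Hdac3, Cdkn1a, the 12 largest rises and 12 largest falls in KD cells, the 8 largest differences in each direction, and up to 4 passing members per list. For the largest rises, falls and differences the rule asked for a mean of at least 5 CPM in a group and no overlap, and left out predicted genes. List members were taken by adjusted p and size of change in KD cells alone, so some lie below 5 CPM. Members that did not pass could also be named. Some genes that the rule selects are not reported here. Outside the rule, Itga6, Cdk1, Rad51d, Fancg, Pdia4, Hsp90b1, Calr, Dnajc3, Sil1, Xbp1, Atf6, Canx, Pdia6, Syvn1, Ddit4, Atf4, Cebpb, Tm7sf2, Nefm, Nefl, Cplx2, Gap43, Jup, Krt8, Krt18, Sox2, Itgb4, Fn1, Ccne1 and Gm5424 were chosen after their values were seen, as were the genes named only for overlapping exons. The comparison and all gene lists were chosen with earlier results of these data known. Alternatives were other scalings, filters and tools (DESeq2 1.42.0, limma 3.58.1), fewer libraries, a replicate block, and removal of Rn45s.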

Additional observations from a re-analysis of the deposited data

Results flagged for a closer look

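At 29 genes the largazole response differed between KD and parental cells by edgeR's test of the difference itself, with 2 libraries per group. Values are KD response minus parental response on the log2 scale, and KD cells had the lower response where they are negative. Among ER chaperone and folding genes the difference was -1.66 for Hspa5, -1.21 for Herpud1, -1.13 for Creld2, -0.99 for Pdia4, -0.91 for Hsp90b1, -0.85 for Hyou1, -0.79 for Calr and -0.69 for Dnajc3. Among genes of the integrated stress response it was -1.26 for Slc7a11, -1.14 for Trib3 and -0.89 for Chac1. Secreted, surface and matrix genes gave -1.66 for Mcpt8, -1.09 for Loxl2, -1.08 for Thy1, -1.08 for Clu, -1.04 for Rnase4 and -0.79 for Cyr61. Clu, the extracellular chaperone clusterin, went from 163 and 151 CPM to 449 and 377 CPM in KD cells and from 56.7 and 51.7 CPM to 305 and 298 CPM in parental cells.

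Replication and repair genes gave -0.85 for Fen1, the flap endonuclease, -0.84 for Fignl1 and -0.61 for Mcm6, a helicase subunit. Fen1 went from 95.6 and 94.6 CPM to 25.6 and 23.9 CPM in KD cells and from 107 and 105 CPM to 52.2 and 47.8 CPM in parental cells. The remaining lower responses were -0.89 for Odc1, -1.15 for Ggt7 and -0.80 for Cited2. Odc1, which makes the polyamine putrescine, went from 2150 and 2092 CPM to 1459 and 1260 CPM in KD cells and from 887 and 886 CPM to 1061 and 1041 CPM in parental cells. The response was higher in KD cells by 0.86 for Eno2, 0.89 for Itgbl1, 0.97 for Bnip3 and 1.11 for Il33. The values of -7.61 for Ass1 and 9.86 for Gm5424 come from near-identical copies whose reads may be split between them, and from groups at 0 counts, so they are not sizes of a change. Of the 29, only Hspa5 and Gm5424 passed without each of the 8 libraries in turn.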

How the results depend on the processing

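The number of genes changed in KD cells was 4293 to 7036 over the alternatives, within 1.5 times of 5971, and that in parental cells (6175) was 4223 to 7796. Leaving out each library in turn gave 2235 to 3574 rises and 2058 to 3462 falls in KD cells. The number of genes whose response differed was less stable. It was 29 by edgeR, and 114 with no filter on low counts, 83 by DESeq2 and 119 with the replicate block. Leaving out each library in turn gave 2 to 544. It was 2 and 13 without the first and the second KD DMSO library, 497 and 544 without the first and the second KD largazole library, 2 without either parental DMSO library, and 3 and 2 without parental largazole replicate 1 and 2. The KD largazole libraries also had the widest spread between replicates of the 4 groups; whether that sets these counts was not tested. No fixed gene, passing gene selected by the naming rule or difference among the 29 reversed its direction under the alternatives run. The KD responses of other named genes, among them Dut and Irf7, were not followed there. Over all genes, falls outnumbered rises in KD cells only without KD largazole replicate 1. The medians of some lists turned. The median of interferon genes was 0.31 without the first KD DMSO library and -0.30 without the second, and that of ribosomal protein genes 0.24 without the second KD largazole library and -0.27 without the first. Without the first KD largazole library the median also turned for YAP and TEAD targets, to 0.05, for antioxidant genes, to -0.05, and for proteasome genes, from 0.04 to -0.11. That of NF-kB, cytokine and chemokine genes turned from 0.004 to -0.03 without the first KD DMSO library. Other lists with medians near 0 may have turned too. Of the values in KD cells of the genes followed, 3000 kept their direction and side of the threshold, 93 no longer passed and 2 came to pass. Of the differences 316 kept theirs and 177 no longer passed. Of list counts, 1260 stayed within 1.5 times and 144 did not. Among the latter, upper-quartile scaling gave 7 rises in place of 3 among corepressor genes, 4 falls in place of 7 among YAP and TEAD targets and 3 in place of 8 among antioxidant genes, and the fit on KD libraries alone gave 8 rises in place of 14 in oxidative phosphorylation. The labels number the replicates without saying that a number marks a shared batch or culture. The correlation of replicate differences between groups was 0.343 for KD DMSO with KD largazole, 0.364 for KD largazole with parental largazole, 0.273 for KD DMSO with parental largazole, 0.146 for parental DMSO with parental largazole, 0.00167 for KD DMSO with parental DMSO and -0.00767 for KD largazole with parental DMSO. As 2 of the 6 lay near 0, the numbers were not taken as pairs. With the replicate block 6702 genes changed in KD cells and 6908 in parental cells, and the difference passed at 11 ER genes in place of 8, at 6 stress response genes in place of 3 and at 10 DNA replication genes in place of 2. With 2 libraries per group, calls near 0 counts are limited by depth, and genes of few counts are given with their counting intervals.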
